A study of Mus musculus with 14 samples.

Results

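Of the 14 mouse embryonic stem (ES) cell lines of the series, 2 carried more RNA from chromosome 8 than the others of their cross, and they are described here against the remaining 4 lines of that cross. The lines were chosen by this very measure: the median level of chromosome 8 genes stood about 0.2 or more on the log2 scale above that of the other lines. All values of chromosome 8 genes in this contrast are therefore descriptions without a test. Of 23298 genes in the table, 15806 reached a value of 10 or more in at least 2 of the 6 lines and were used, and 805 of these lie on chromosome 8.

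The series compared RNA of ES cells with an XX, XY or XO complement, derived from both directions of a cross between C57BL/6J and CAST/EiJ mice. The 6 lines considered here are all CB lines, with a CAST/EiJ mother and a C57BL/6J father, and comprise 3 lines labelled XX and 3 labelled XY. Each line came from a single blastocyst, so that every line is its own embryo and its own clone of culture history, and all were grown in the presence of LIF, a cytokine that keeps ES cells undifferentiated, on a layer of mitotically inactive fibroblasts (feeder cells), which were depleted before RNA was taken. The 8 lines of the opposite direction (BC: 3 XX, 3 XY and 2 XO) serve as a background for chromosome levels. The raised lines are CB XY 1 and CB XX 3, and the comparison lines are CB XY 2, CB XY 3, CB XX 1 and CB XX 2. For the XX lines the numbers follow the column order in the table and do not match those in the sample labels.

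Mouse ES cells in culture are known to gain whole chromosomes, and chromosome 8 is among those gained most often, since cells that carry an extra copy tend to outgrow their neighbours. In such cells RNA from most genes on the chromosome usually rises in proportion to gene copies, while some genes are buffered. This is background: the files hold RNA values only and DNA copy number was not measured in them. The study's methods state that the sequenced lines were karyotyped by counting chromosomes near the passage used, and that most spreads of the XX and XY lines had the diploid number. Counts for each line are not used here, and more cells with an additional copy cannot be told apart from more RNA per copy in a bulk library.

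The labels and libraries were checked first. Uty, a Y-linked gene, had a value of 1149 in CB XY 1 but 19.6 in CB XY 2 and 45.4 in CB XY 3, against 12.8, 45.1 and 57.8 in the XX lines. CB XY 2 and CB XY 3 are labelled XY, yet their Uty values were no higher than those of the XX lines. The chromosome 8 level, the share of its genes above all others and the limma counts are also given without them. The contrast of CB XY 1 with the other XY lines, its values along the chromosome and the medians of gene lists rest on them. The median X-linked level was low in all 3 XY lines (-0.45, -0.66 and -0.26, log2) and high in all 3 XX lines (0.37 to 0.53). The ES cell genes Pou5f1, Nanog and Esrrb were abundant in each of the 6 lines, at 5909 or more. Depth, judged from the size of the step between low values, was about 11904424 (CB XY 2) to 31997704 (CB XX 3) reads per CB line. CB XX 3 stood apart by base composition: the median difference between genes of at least 56.4% and those of at most 44.8% GC was -0.64 (log2, 2694 genes each). It was 0.36 in CB XY 1, the highest of the 6 lines, and -0.25 to 0.15 in the comparison lines. The 2 raised lines thus lay at opposite ends.

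Chromosome 8 RNA was about 1.23-fold higher in CB XY 1 and CB XX 3 than in the comparison lines. Relative to the comparison lines and to the other autosomes, the median over 805 genes was 0.33 (log2) in CB XY 1 and 0.29 in CB XX 3. The comparison lines lay at -0.02 in CB XY 2, -0.03 in CB XY 3, -0.00 in CB XX 1 and 0.05 in CB XX 2 (SD 0.03, n = 4), and the 8 BC lines ranged from -0.20 to -0.01. Both raised lines therefore stood far above every other line of the series, and the 2 groups did not overlap. The difference of the group means was 0.30 (0.28 without CB XY 2 and CB XY 3), and each line by itself gave 1.26-fold (CB XY 1) and 1.22-fold (CB XX 3). For scale, 3 gene copies in place of 2, in every cell and with RNA in proportion, would give 0.58.

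The same shift was seen in the summed values, which weight the most abundant RNAs. Chromosome 8 genes supplied 5.80% of all autosomal values in CB XY 1 and 5.61% in CB XX 3. The comparison lines had 4.47% (CB XY 2), 4.49% (CB XY 3), 4.42% (CB XX 1) and 4.71% (CB XX 2), and the BC lines 4.21% to 4.56%.

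**Figure D1:**
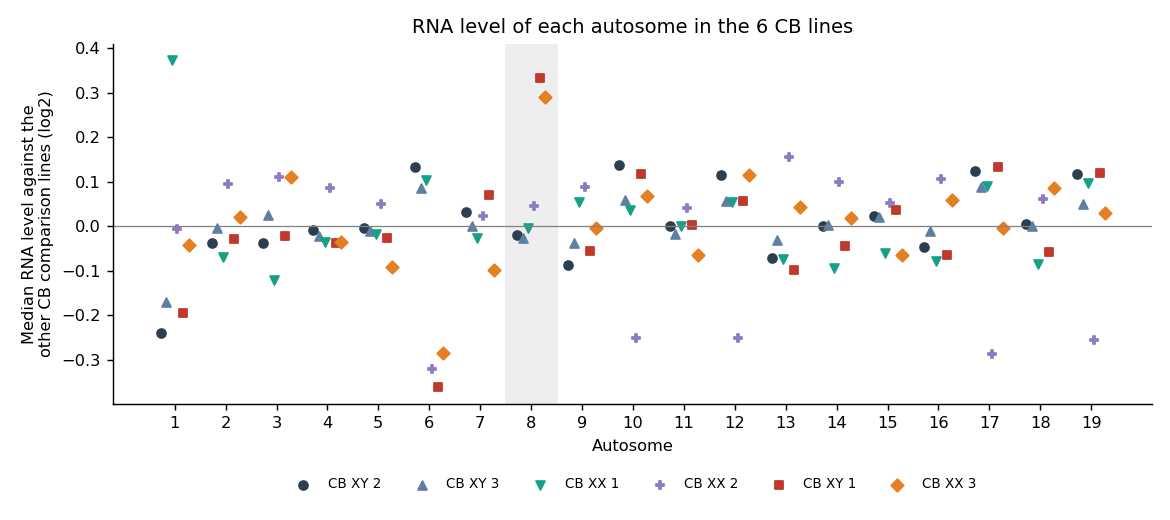
Median RNA level of each autosome (x axis) in the 6 CB lines (1 symbol per line), as log2 difference from the comparison lines (each comparison line against the other 3) after subtracting the median of the other autosomes (y axis). On chromosome 8, shaded, CB XY 1 (0.33) and CB XX 3 (0.29) stand above the 4 comparison lines (-0.03 to 0.05). Chromosome 6 shows 3 lines low and 3 lines high, and the low ones include both raised lines and CB XX 2.

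Among the other autosomes the difference between raised and comparison lines ran from -0.33 (chromosome 6) to 0.10 (chromosome 12), so chromosome 8 had the highest median of the 19 autosomes. Chromosome 6 had a difference of the opposite sign. With every line set against the mean of all 6, so that the lines share 1 reference, its levels were -0.26 in CB XY 1, -0.16 in CB XX 3 and -0.14 in CB XX 2, against 0.21 in CB XY 2, 0.18 in CB XY 3 and 0.19 in CB XX 1. The raised lines were the lowest, but the comparison line CB XX 2 was nearly level with CB XX 3 and far from the other 3. On these levels an exact two-sided permutation test over the 15 ways to choose 2 of 6 lines gave p = 0.0667, the smallest value this design can give. Chromosome 6 had the largest difference of the other autosomes, and this p takes no account of that choice. Against the comparison lines, as in the plot of autosome levels, CB XY 2, CB XY 3 and CB XX 1 (0.09 to 0.13) were above all BC lines (-0.31 to -0.05). CB XX 3 (-0.28) lay within the BC range, and CB XY 1 (-0.36) and CB XX 2 (-0.32) lay just below it. The chromosome 6 difference thus includes comparison lines that stood high. Single comparison lines also departed on other chromosomes, with 0.37 on chromosome 1 in CB XX 1 and -0.25 to -0.29 on chromosomes 10, 12, 17 and 19 in CB XX 2.

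Gene by gene, the shift was broad and not carried by a few RNAs. Of the 805 chromosome 8 genes, 673 (83.6%) had a positive difference, compared with 49.5% of 14032 genes on the other autosomes. The middle range of the differences, from the lower to the upper quartile, was 0.11 to 0.47 (log2), and it was -0.21 to 0.20 on the other autosomes. Both raised lines lay above all 4 comparison lines for 241 chromosome 8 genes (29.9%) and below all 4 for 11 (1.37%). Over all genes used, 7.16% lay above and 6.27% below, and over the other autosomes 5.93% and 6.83%. On single other autosomes the share above ran from 1.72% to 8.95%. Without CB XY 2 and CB XY 3, the raised lines exceeded the remaining 2 for 44.2% of chromosome 8 genes. With fewer lines to exceed, that condition is easier to meet. The share over other genes was not computed for it, so 44.2% cannot be set against 29.9%. Since the lines were chosen by the level of these genes, the counts describe how the shift was spread over genes.

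**Figure D2:**
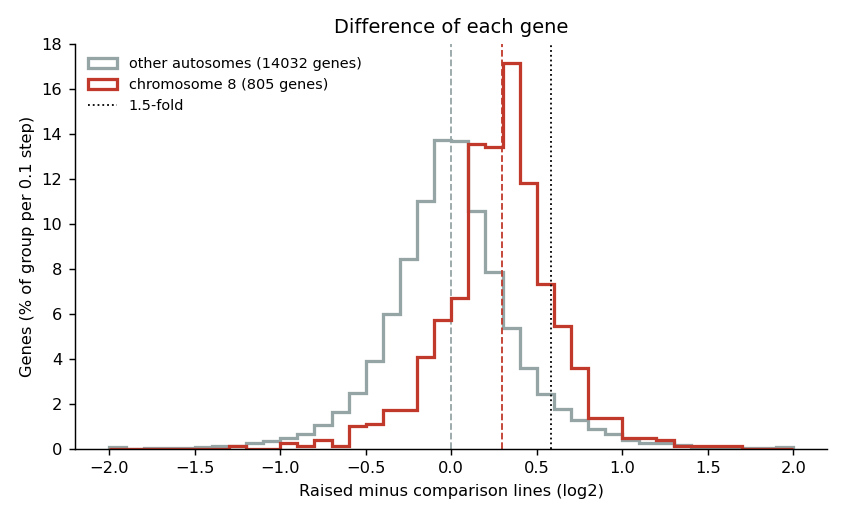
Distribution of the difference between raised and comparison lines (x axis, log2) for chromosome 8 genes (red) and genes on other autosomes (grey), as percent of each group per step of 0.1 (y axis). Dashed lines mark the medians, 0.30 and -0.00, and the dotted line marks 1.5-fold; values beyond the axis are placed in the outermost steps. The whole chromosome 8 distribution is displaced to the right, with 14.7% of its genes past 1.5-fold against 6.35% elsewhere.

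The shift was present in every class of abundance. The median difference was 0.29 for chromosome 8 genes with a mean value of 10 to 100, 0.28 at 100 to 300, 0.29 at 300 to 1000, 0.29 at 1000 to 3000 and 0.35 at 3000 or more. Genes on the other autosomes had medians of 0.08, 0.03, -0.03, -0.03 and -0.02 in the same classes. Relative to them, the shift was thus smallest for the least abundant genes and largest for the most abundant. Single genes also separated more cleanly with abundance: both raised lines were above all others for 14.4% of genes in the lowest class and for 49.6% in the highest, against 7.78% and 4.84% elsewhere. Among the 312 chromosome 8 genes with a mean value of 1000 or more, 135 had both raised lines above all others, none had both below, and 30 had a negative difference.

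The raised lines carry different labels, so the shift could be described in contrasts that share no line. Each line was chosen by its chromosome 8 level, so a positive median in each contrast follows from the choice. The values below describe its size and spread. CB XY 1 against CB XY 2 and CB XY 3 gave a chromosome 8 median of 0.34, and CB XX 3 against CB XX 1 and CB XX 2 gave 0.27. The first of these also sets a line with Y-linked RNA against lines whose Uty values were at the level of the XX lines. Both differences were positive for 479 chromosome 8 genes (59.5%) and for 26.7% of genes on other autosomes. The spread of single genes was larger in the XX contrast, with quartiles of -0.05 and 0.57, than in the XY contrast, with 0.12 and 0.57. Across 805 chromosome 8 genes, which are not independent replicates and share the libraries' base composition, the contrasts had a Pearson r of -0.05 (-0.23 for the 312 with a mean value of 1000 or more), against 0.14 on the other autosomes. After each line was corrected for a trend on transcript GC content, the medians were 0.32 in the XY contrast and 0.32 in the XX contrast, and r was 0.08 across 782 chromosome 8 genes and 0.26 on the other autosomes.

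Position along the chromosome was examined in 16 consecutive groups of 50 expressed genes, from Insr (start at 3150922, mm9) to Rbm34 (start at 129471075), leaving 5 genes at the end ungrouped. All 16 groups had a positive median in the raised lines, from 0.12 to 0.39, and 285 such groups on the other autosomes ranged from -0.40 to 0.33. The XY contrast was positive in all 16 groups (0.12 to 0.55). In the XX contrast 14 of 16 groups were positive, with a median of -0.15 in the group from Fkbp8 to Zfp882 (starts at 73051623 to 74432507) and -0.15 in the group from Taf1c to Sult5a1 (starts at 122121875 to 125666747). These 2 groups had the highest mean GC content of the 16, 57.9% and 57.7%, against a range that began at 45.9%. On the other autosomes 285 groups ran from -0.61 to 0.37 in the XY contrast, with 137 positive, and from -0.94 to 0.44 in the XX contrast, with 139 positive; 5 and 2 of the chromosome 8 groups lay above those ranges. With the GC trend removed the 2 groups stood at 0.14 and 0.13, all 16 groups of the XX contrast were positive (0.13 to 0.43), and the XY contrast kept all 16 (0.17 to 0.42). After GC correction the median was thus above 0 from the first group to the last in both lines, at the resolution of 50 genes. Groups on the other autosomes were not computed after GC correction, so these corrected values have no background range.

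**Figure D3:**
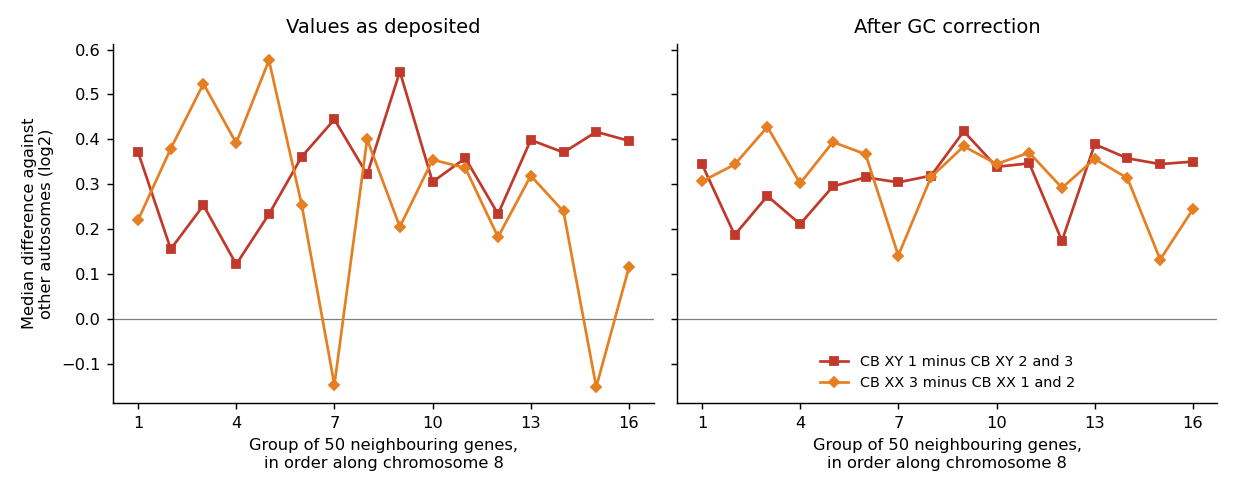
Median difference (y axis, log2, minus the other autosomes) in 16 groups of 50 neighbouring genes in order along chromosome 8 (x axis), for CB XY 1 against the other XY lines (squares) and CB XX 3 against the other XX lines (diamonds). Left, values as deposited, with 2 groups of the XX contrast at -0.15; right, after GC correction, with all groups of both contrasts above 0.

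Chromosome 8 encodes proteins of many basic cell functions, and 6 lists with 124 genes in all were followed. Of these, 121 could be used: Hand2 was under the filter, Foxf1a was not found by that symbol and Exosc6 could not be placed. A positive difference was found for 106 of the 121, and 48 (39.7%) had both raised lines above all others, against 29.9% of all chromosome 8 genes and 7.16% of all genes. The lists were not matched for abundance. Among chromosome 8 genes with a mean value of 1000 to 3000 the share was also 39.7%.

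Cell cycle and DNA replication genes followed the chromosome closely, with 19 of 20 positive, 11 above all other lines and a median of 0.37. Hmgb2 (chr8:59990640-59994796, plus strand, mm9), which encodes a chromatin protein abundant in dividing cells, had values of 17782 in CB XY 1 and 25153 in CB XX 3, against 14822, 13117, 13338 and 12447 in CB XY 2, CB XY 3, CB XX 1 and CB XX 2 (difference 0.66, log2). Cdc16, a subunit of the anaphase-promoting complex, stood at 3857 and 3883 in the raised lines and at 2724, 2743, 2775 and 2941 in the others, in the same order (0.47). In both genes the 2 groups were apart, and for Cdc16 the raised lines were nearly equal. Tfdp1, the partner of E2F transcription factors, was at 6459 and 5418 against 3851, 4817, 4206 and 4067 (0.49). Orc6, a subunit of the origin recognition complex, had 3599 and 4568 against 2576, 2688, 3025 and 3585 (0.46), so that CB XY 1 lay only just above CB XX 2. E2f4 overlapped, at 3597 and 2624 against 2842, 2520, 2776 and 2039 (0.28). The lone negative member was Asf1b, a histone chaperone (-0.11), and Gins2, a replication factor, reached 998 and 1116 with CB XX 2 also at 1116 (0.21).

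Chromatin and transcription genes were positive in 20 of 22 cases, with 9 above all other lines and a median of 0.30. Nacc1, a transcriptional regulator expressed in ES cells, had 11814 in CB XY 1 and 7618 in CB XX 3 against 7142, 6732, 6656 and 4967 (0.59). Ctcf, the insulator protein, lay only slightly above in both raised lines, with 7258 and 8187 against 6759, 6614, 7159 and 7054 (0.16). Smarca5, the ATPase of ISWI chromatin remodelers, was at 11732 and 17162 against 9107, 10081, 10072 and 12687 (0.45), and CB XX 2 exceeded CB XY 1. The raised lines lay far apart for Ier2 and Junb, immediate early genes that respond quickly to stimulation. Ier2 had 5435 in CB XY 1, the highest of the 6, and 2264 in CB XX 3, the lowest, against 3925, 3284, 3538 and 3287 (0.00). Junb, singled out after its values were seen, was at 3882 and 640 against 2400, 2635, 1801 and 2360 (-0.53). CB XX 3, low in both, is the library with low GC-rich RNAs, and CB XY 1, high in both, is the one with the highest. The part of base composition was not tested. Cbfb, Gse1, Banp, Nfix and Irf2 had both raised lines below the highest comparison line, with differences of 0.00 to 0.58.

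In protein and RNA handling 21 of 23 genes were positive and 13 were above all other lines, with a median of 0.36. Cnot1, the scaffold of the CCR4-NOT deadenylase complex, was the most abundant of them, at 29538 and 34829 against 24821, 20297, 22866 and 18210 (0.58). The alanyl-tRNA synthetase gene Aars had 20524 and 20027 against 17124, 15148, 18645 and 15314 (0.30). Both were raised in both lines, without overlap. Sf3b3, a subunit of the SF3b splicing complex, stood at 16338 and 18996 against 11718, 13262, 14114 and 16190 (0.36), with CB XX 2 close to CB XY 1. Nip7, a ribosome biogenesis factor, was at 11239 and 10398 against 6779, 7238, 10211 and 9990 (0.36), which is mostly a difference within the XY lines. Dnaja2, a co-chaperone, had 8480 and 9643 against 6440, 7395, 7967 and 9118 (0.24). Upf1, the helicase of nonsense-mediated decay, was not raised (-0.15), nor was the proteasome subunit gene Psmd7 (0.07), and both overlapped the comparison lines, as did Csnk2a2 (0.13).

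Genes of metabolism and mitochondria were positive in 17 of 19 cases, with 8 above all other lines and a median of 0.32. Got2, the mitochondrial aspartate aminotransferase, had 9250 and 7644 against 6840, 6469, 6634 and 6170 (0.37). Atp6v1b2, a subunit of the vacuolar proton pump, had 6154 and 7043 against 5113, 4560, 4961 and 4263 (0.48). In both genes every raised value exceeded every comparison value. Cox4i1, a subunit of cytochrome c oxidase, was at 12142 and 10219 against 8230, 7903, 10707 and 9135 (0.32), with CB XX 1 between the raised lines. Cyb5b, a cytochrome b5 of the mitochondrial outer membrane, reached 6612 and 5812 against 3947, 5072, 5683 and 5453 (0.31). The members with both raised lines below the highest other were Gcsh, Galnt2 and Gcdh, at 0.12, 0.28 and -0.01.

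For signalling and stress genes the median was 0.27, and 21 of 23 were positive with 6 above all other lines. Calr, a calcium-binding chaperone of the endoplasmic reticulum, was at 22561 and 28482 against 18276, 18013, 18000 and 16223 (0.53). The peroxidase gene Prdx2 stood at 10986 and 9574 against 7390, 7833, 7958 and 7319 (0.43). These abundant RNAs separated cleanly. The metallothionein genes, whose products bind zinc and copper, did not: Mt1 had 14882 and 7677 against 13619, 8113, 11577 and 6774 (0.15), and Mt2 followed it at 10671 and 7039 against 9358, 7111, 8935 and 5883 (0.17). In both genes CB XX 3 fell within the range of the comparison lines. Dlc1 overlapped as well (0.05), and so did Gab1, Gas6, Egln1, Nqo1, Vegfc and Nrg1, which had both raised lines below the highest other (0.04 to 0.64).

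Pluripotency and lineage genes on chromosome 8 followed the chromosome least, with 8 of 14 positive, 1 above all other lines (Nanos3, a germ cell gene of low value) and a median of 0.15. Klf2 (chr8:74842932-74845555, plus strand), a transcription factor of naive pluripotency, was at 7266 in CB XY 1 and 2835 in CB XX 3 against 5401, 5488, 7469 and 6291 (-0.43). CB XX 3 was therefore the lowest of the 6 lines for Klf2, and CB XY 1 lay within the comparison range. Sall1 was at 3211 and 2838 against 3345, 3171, 3993 and 3155 (-0.17), and the neuronal tubulin gene Tubb3 at 3665 and 1709 against 2404, 2900, 3417 and 3796 (-0.30). Zfp42 (Rex1), a marker of undifferentiated ES cells that also lies on chromosome 8, did not separate either, with 8890 and 10239 against 7904, 8052, 10105 and 11521 (0.04). The adhesion receptor genes Cdh1 and Itgb1 varied widely among lines, the first at 14179 and 14003 against 17345, 11665, 9283 and 6467 (0.42), the second at 8238 and 14292 against 5335, 7656, 4978 and 10127 (0.69). Cdh3, Nrp1, Irx3 and Foxc2 also had both raised lines below the highest comparison line. After GC correction the list's median was 0.27 with 11 of 14 positive, and Klf2 stayed at -0.26.

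**Figure D4:**
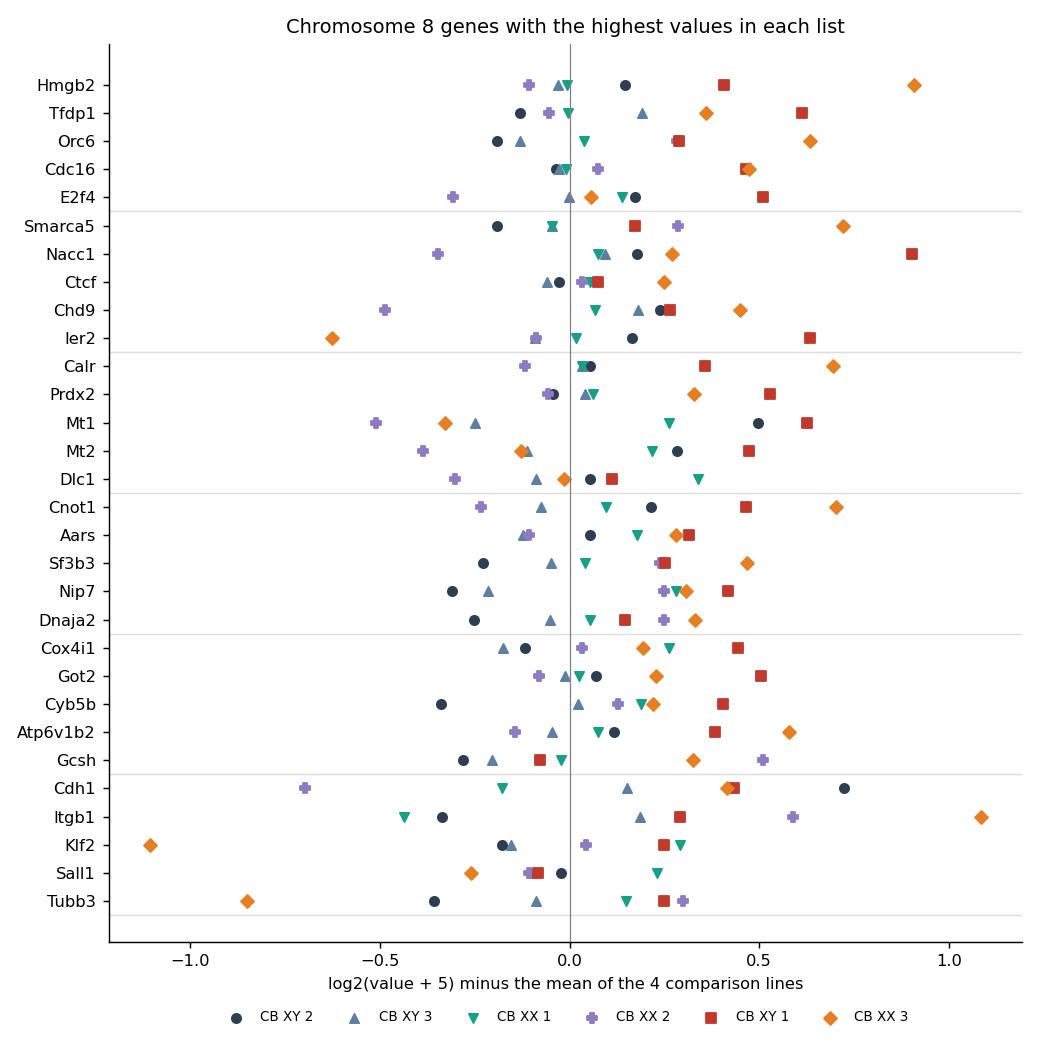
Values of the 5 most abundant genes of each chromosome 8 list (rows, in groups from top to bottom: cell cycle, chromatin, signalling and stress, protein and RNA handling, metabolism, pluripotency and lineage) in the 6 CB lines, as log2(value + 5) minus the mean of the comparison lines (x axis). For Hmgb2, Cdc16 and Calr both raised lines stand to the right of the others, whereas Ier2, Klf2 and Tubb3 have CB XX 3 farthest to the left.

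The chromosome 8 genes with the largest differences at a mean value of 100 or more were mostly RNAs of low value. Zfp827, a zinc finger gene, led with 351 and 307 against 86.0, 171, 85.3 and 73.1 (1.69). Ccl25, a chemokine gene, had 202 and 446 against 101, 92.2, 168 and 144 (1.26), and Psd3 had 129 and 220 against 54.0, 113, 46.9 and 96.3 (1.16). All raised values of these 3 genes exceeded the comparison values. Cdh11, a cadherin gene, was at 755 and 855 against 169, 694, 225 and 613 (1.16), also without overlap. Pdlim3 (1.58) overlapped, with 108 in CB XX 3 and 173 in CB XY 3. At the other end Clgn, a chaperone gene known from the testis, had 60.6 and 89.7 against 155, 154, 136 and 161 (-0.99), and Ntpcr 113 and 132 against 182, 173, 202 and 290 (-0.74). These RNAs were lower in both raised lines without overlap, against the direction of their chromosome. Il34 (-0.77), Tktl2 (-0.57) and Ssbp4 (-0.54) overlapped.

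Outside chromosome 8 the question was whether other RNAs differed with the raised lines. None of the 14617 genes placed on other chromosomes passed an adjusted p of 0.05 in limma with a term for the label (Benjamini-Hochberg over all 15806 genes, lowest adjusted p 0.432), in either direction. At an unadjusted p below 0.05 there were 1016 genes (6.95%), with 420 higher (2.87%) and 596 lower (4.08%), and limma-voom on approximate reads also called 0, with 1068 at that unadjusted threshold. Without CB XY 2 and CB XY 3, limma again called 0 genes, with 926 below an unadjusted p of 0.05; that fit has no term for the label. The unadjusted count moved with the fit, to 581 (3.97%) with no term for the label, 1580 (10.8%) without CB XY 1 and 675 (4.62%) without CB XX 3. Chromosome 6 held 152 of the 596 lower genes, and without it 6.15% of genes were below 0.05. The design has 2 lines against 4, differences of single genes had a median residual SD of 0.27 (log2), and a p that misses the threshold does not show that these RNAs were alike.

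Calls appeared when a raised line was left out, and they then followed the remaining line. Without CB XY 1, 26 genes were called, 25 of them lower. Of those, 14 were replication-dependent histone genes, whose RNAs have GC-rich, short transcripts. Hist1h3e, chosen after its values were seen, had 83.5 in CB XX 3 against 2846 in CB XY 1 and 2193, 1964, 2536 and 2009 in CB XY 2, CB XY 3, CB XX 1 and CB XX 2. Over 59 histone genes of these clusters CB XX 3 was the lowest of the 6 lines in 47, as it was for 20.3% of all genes used and for 50.5% of the 2694 genes of at least 56.4% GC, and their summed value was 81052 there against 128039 to 178917 in the other 5 lines. CB XX 3 is also the library with the low GC-rich RNAs described above, and the part of base composition in the histone values was not tested. Without CB XX 3, 2 genes were called: Amd1, listed near 0 in CB XY 2 and CB XY 3 (1.62 and 1.79), and Rpl34, at 1351 in CB XY 1 against 10903 to 15112 in the other 5 lines.

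Of the RNAs outside chromosome 8, the transcription factor gene Gata4 and the sulfotransferase gene Chst15 were among those with the largest higher values without overlap, beside the Y-linked Uty and Ddx3y, which were high in CB XY 1 and at the level of the XX lines in CB XY 2 and CB XY 3. Gata4 had 398 in CB XY 1 and 113 in CB XX 3 against 44.2, 109, 29.8 and 19.5 (difference 2.22, log2, SE 0.40, adjusted p = 0.432 in limma). Chst15 had 541 and 377 against 160, 266, 76.8 and 130 (1.61). In both of them CB XY 3 came closest to the raised lines. The lower end held Pcsk1n, Hist1h2bk, A2m, Htra1 and Lars2. Hist1h2bk and Pcsk1n were low through CB XX 3, with differences of -0.12 and -0.55 without that line. Htra1, a secreted protease, was at 301 and 330 against 727, 797, 1473 and 1396 (-1.71), and A2m, on chromosome 6, at 92.9 and 273 against 695, 401, 1059 and 328. Lars2 varied from 14373 to 368523 among the 6 lines.

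Gene lists outside chromosome 8 had no called member in limma, in any of the 11 lists, so their medians are given as values. On the other autosomes 49.5% of all genes had a positive difference. Mesendoderm and endoderm genes had the highest median among the lists of lineage genes, 1.30 over 14 genes beside 0.01 over all genes used, with 13 positive and 8 at an unadjusted p below 0.05 (6.95% of all genes outside chromosome 8 were). T (Brachyury), the founding mesoderm transcription factor, had 1933 and 367 against 418, 1347, 76.8 and 21.9, and Mixl1 648 and 184 against 88.4, 270, 32.7 and 14.6. Eomes stood at 1876 and 480 against 413, 1138, 247 and 440. These RNAs were highest in CB XY 1, which exceeded all 5 other lines in 12 of 14 members and in 3160 of all 15806 genes used (20%), and CB XX 3 exceeded both other XX lines in 10 of 14, against 36.1% of all genes used. The comparison line CB XY 3 was also high, and CB XX 3 exceeded it in 2 members. The groups overlapped in 13 of 14 members, Gata4 being the exception by a narrow margin. The mean level of the list (log2) was 7.86 in CB XY 1 and 6.11 in CB XX 3, against 4.94 to 6.89 in the comparison lines. In the 8 BC lines, of the opposite cross direction, it ran from 6.83 to 8.02. CB XY 1 thus lay within the BC range, and CB XX 3 lay below it.

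Pluripotency factors outside chromosome 8 had a median of -0.25 over 21 genes, with 18 negative. At an unadjusted p below 0.05 in limma there were 5, beside 6.95% of all genes outside chromosome 8. Their mean level (log2) was 12.57 in CB XY 1 and 12.38 in CB XX 3, against 12.64 to 13.00 in the comparison lines. The BC lines ran from 12.12 to 12.70, a range that held both raised lines. Klf4, a naive pluripotency factor, was at 4033 and 3277 against 6162, 5995, 6662 and 5949 (-0.77, SE 0.15, adjusted p = 0.432 in limma). Nanog was at 5909 and 6743 against 9689, 7674, 12130 and 9396 (-0.60, adjusted p = 0.516 in limma). It lies on chromosome 6, whose median in this contrast was -0.33. Both Klf4 and Nanog were lowest in the 2 raised lines among the CB lines. The core factor Pou5f1 was at 25867 and 21592 against 19818, 20945, 29386 and 24378 (0.02), and Esrrb, Tfcp2l1 and Dppa5a also overlapped. Among 14 genes of the formative and primed epiblast (median 0.27), Lefty1, a Nodal inhibitor, stood at 2801 and 2315 against 1203, 1076, 1480 and 1493 (0.97, adjusted p = 0.432 in limma), and the DNA methyltransferase gene Dnmt3b at 15534 and 4403 against 11760, 12820, 3923 and 2815, which followed the label.

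**Figure D5:**
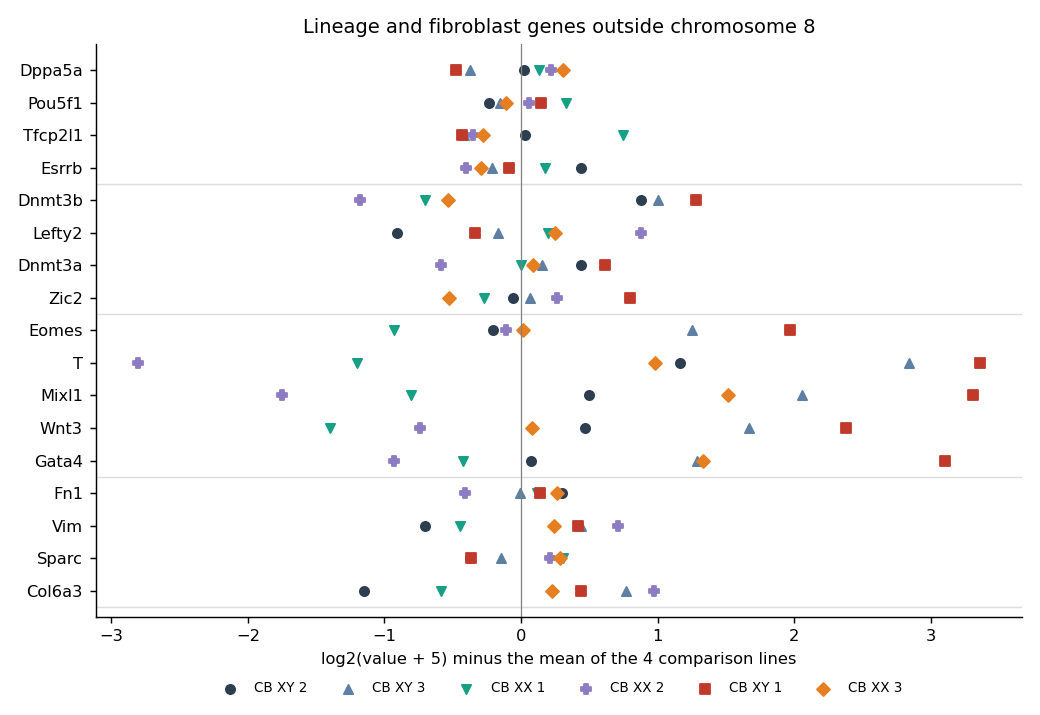
Values of lineage and fibroblast genes outside chromosome 8 (rows, from top to bottom: pluripotency, formative epiblast, mesendoderm and endoderm, fibroblasts) in the 6 CB lines, as log2(value + 5) minus the mean of the comparison lines (x axis). CB XY 1 (squares) stands farthest to the right for T, Mixl1 and Gata4, followed by CB XY 3 (triangles), while Pou5f1 differs little.

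Fibroblast genes, which mark feeder cells, had a median of 0.46 over 22 genes, with 19 positive. In 1 of them both raised lines were above all others, beside 7.16% of all genes used. At an unadjusted p below 0.05 in limma there was 1, beside 6.95% of all genes outside chromosome 8. The summed value of the list was 85037 in CB XY 1 and 94427 in CB XX 3, against 66186, 87741, 69194 and 89012, so the groups overlapped. The part of feeder cells in the results above was not tested. Of the remaining lists, p53 targets had a median of -0.16 (20 genes), heat shock and unfolded protein response genes -0.08 (22 genes), proteasome genes 0.01 (30 genes), replication and cell cycle genes -0.05 (31 genes), genes of the state resembling the 2-cell embryo 0.17 (4 genes), and zinc handling genes -0.29 (5 genes). Replication genes outside chromosome 8 therefore stood near 0, while those on chromosome 8 stood at 0.37. The 5 used genes of the list of Y-linked genes and Xist had a median of 1.51, and Xist was at 3803 in CB XX 3 against 1113 to 1723 in the other 5 lines.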

How the data were processed

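RNA of 14 ES cell lines was sequenced by the submitters as strand-specific libraries of total RNA depleted of ribosomal RNA, 1 library per line. The submitters' notes name TopHat2, Cuffdiff and mm9, and the deposited values are gene-level signal, meaning read counts per gene scaled to a common library size by the authors. In the CB lines 99.0% to 99.3% of low values were multiples of 1 step (within 0.1), but smaller fractional values prevented a count test.

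Genes were placed by symbol in GENCODE for mm9 (21180 genes) or through a RefSeq synonym (803). Genes with a value of 10 or more in at least 2 CB lines were kept. A further 15, listed at 0 in at least 1 CB line and at 100 or more in another, none on chromosome 8, were left out. Differences are on the scale of log2(value + 5), which understates changes of low values. The level of a chromosome is its median gene difference from the comparison lines (other than the line itself), minus that of the other autosomes. Genes outside chromosome 8 were tested with limma 3.58.1 (R 4.3.3, trended variance, term for the label, Benjamini-Hochberg over all genes), tested on simulated data beforehand. P-values measure the spread between lines.

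Named on chromosome 8 were up to 5 members of highest mean per list, members with both raised lines below the highest other, and the 5 largest differences each way at a mean of 100 or more; elsewhere, the 5 largest differences without overlap each way, up to 4 members of highest mean per list, and others said to be chosen by their values. A result that the rule would name is not reported here. Members and lists were chosen with earlier results of these data known. T, Mixl1, Klf4, Nanog, Lefty1 and Zfp42 were named after their values were seen. Lines were prepared in batches, and which lines shared one is not given in the sources used here.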

Additional observations from a re-analysis of the deposited data

Results flagged for a closer look

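Chance alone would mark about 1 in 20 groups by the test for a single distant line. Among the 4 comparison lines, CB XX 2 lay far below the other 3 on chromosome 6 (-0.32), chromosome 12 (-0.25) and chromosome 17 (-0.29, log2). Among the 8 BC lines, BC XX 3 had the lowest chromosome 8 level, -0.20, at a distance from the rest that just passed the limit.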

How the results depend on the processing

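The chromosome 8 level stayed positive under 18 alternatives, from 0.27 (no filter on low values) to 0.35 (summed values), and from 0.27 to 0.34 with 1 line left out. The XX contrast by itself gave 0.24 without the filter and 0.32 after GC correction. With a line left out, both raised lines (or the remaining one) exceeded all others for 31.9% to 57.3% of chromosome 8 genes. The share was 46.7% without CB XY 1 and 57.3% without CB XX 3. This condition is easier to meet with fewer lines, and the share over other genes was not computed for it. Without CB XY 1 or CB XX 3, 1 raised line remains, and a fit then assumes that it varies like the others. Positive groups along the chromosome numbered 14 to 16 and the chromosome 6 level ran from -0.46 to -0.17 with a line left out. Genes called outside chromosome 8 numbered 0 to 26 then (0 to 1 higher), with 26 without CB XY 1 and 2 without CB XX 3, and 0 under the other alternatives, which were median-of-ratios scaling, quantile normalization, a pseudocount of 1, a mean of 100 or more, no filter, no term for the label, GC correction, genes listed at 0 kept, and limma-voom. Members of gene lists called outside chromosome 8 numbered 0 throughout. Over all 16 alternatives the difference of Gata4 was 1.93 to 2.90 (adjusted p 0.248 to 0.964 in limma), that of Klf4 -0.94 to -0.59 (0.171 to 0.964), that of Nanog -0.76 to -0.52 (0.380 to 0.964) and that of Lefty1 0.64 to 1.30 (0.215 to 0.964). Pou5f1 changed sign, at -0.31 without CB XY 1, -0.05 without CB XY 2, -0.01 without CB XY 3 and -0.18 without both of the latter, with no call. Pcsk1n, Hist1h2bk and Htra1 were called only without CB XY 1. GC correction, limma-voom and the genes listed at 0 were added after the data were seen, except GC correction of the chromosome 8 level. Count tests were not run, since whole reads could not be recovered. No paired analysis was possible because the numbers name independent lines and those of the XX columns do not match the labels.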
